A study of Mus musculus with 9 samples.

Results

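The miRNAs described here come from loci that are subject to genomic imprinting. They are mmu-miR-296 and mmu-miR-298 beside Nespas at the Gnas locus, mmu-miR-335 in Mest, mmu-miR-675 in H19 and mmu-miR-483 in Igf2. These 5 of the 1164 entries of the count table were selected on the position of their genes, by a choice made with the counts of miR-296, miR-298 and miR-335 across the 3 lines already known. Their differences between lines are therefore a description. No p-value is given for them, and where it is said that a fit over all miRNAs called a member, this places the member among the other miRNAs and is not independent support for its difference. Counts were found for 3 of the 5, and 469 of all 1164 entries had at least 1 count.

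The samples are small extracellular vesicles (smEVs), pelleted by differential centrifugation from the medium of kidney medullary (KM) cells, which are immortalised epithelial cells of the mouse kidney. Lines of the genotypes Bbs4-/-, Bbs6-/- and wild-type (WT) were grown to confluency and starved of serum for 24 h, after which 3 smEV pellets of each line were used for small RNA sequencing. Bbs4 is a subunit of the BBSome, a complex that carries membrane proteins through cilia, and Bbs6 is a chaperonin-like protein needed for its assembly. Each genotype is represented by 1 line, so an effect of the genotype and a property of the line cannot be told apart. The values are miRNA counts per library, and WT was the shallowest line. The total counts ranged from 64118 to 130905 in WT libraries, while Bbs4-/- libraries had between 176935 and 457163 and Bbs6-/- libraries between 192654 and 423784. Libraries carry the replicate numbers of the count table, 1 to 3 in Bbs4-/-, 2 to 4 in Bbs6-/-, and 1, 3 and 4 in WT. Pairs of libraries of the same line differed by more than sampling noise (chi-square divided by its degrees of freedom, 12.4 to 110). Bbs6-/- library 2 stood apart, with 86.2 and 110 against the other Bbs6-/- libraries, which differed from each other by 12.4. Levels are CPM after TMM scaling, that is, counts relative to a library size that has been corrected for differences in composition.

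An imprinted gene is transcribed mainly from the copy inherited from one parent, under the control of DNA methylation set in the germ line. Mest, Igf2 and the antisense transcript Nespas are expressed from the paternal copy, and the non-coding RNA H19 from the maternal copy. The miRNAs of such loci are cut from the same primary transcripts, or from transcripts read through the same region, and a mature miRNA then guides silencing of mRNAs that pair with its seed, bases 2 to 8 from its 5′ end. The counts do not separate parental copies, so they hold no information on imprinting itself.

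All 5 genes could be placed in the GENCODE vM21 annotation of GRCm38. Mir296 lies on chromosome 2 at 174267047-174267125 and Mir298 at 174267504-174267585, both on the minus strand and with 378 bp between them. In this annotation neither lies inside a transcript of Nespas. They lie on its strand, 14111 bp and 13651 bp beyond its annotated 3′ end. Mir335 lies on the plus strand of chromosome 6 at 30741299-30741396, in an intron of all 7 Mest transcripts that span it. Mir675 lies on the minus strand of chromosome 7 at 142577064-142577147, inside an exon of 3 of the 4 H19 transcripts that span it. Mir483 lies on the same strand at 142654924-142654996, in an intron of all 7 spanning Igf2 transcripts, with 77776 bp between it and Mir675.

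The sequences of the 3 miRNAs with counts are shown because the deposited entries name the miRNA without its arm, so that a count can stand for either strand of the hairpin. They are the RefSeq sequences of GRCm38.p6, 5′ to 3′. In the 2 hairpins of the Gnas locus the capitals mark the annotated mature arms, the 5p arm before the 3p arm, and in the mature sequences they mark the seed.
Mir296 hairpin: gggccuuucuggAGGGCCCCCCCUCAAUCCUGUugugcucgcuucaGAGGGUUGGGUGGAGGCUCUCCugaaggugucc
Mir298 hairpin: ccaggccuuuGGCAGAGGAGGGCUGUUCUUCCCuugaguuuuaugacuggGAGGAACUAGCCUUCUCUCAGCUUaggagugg
miR-296-5p: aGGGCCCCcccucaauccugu
miR-296-3p: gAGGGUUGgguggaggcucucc
miR-298-5p: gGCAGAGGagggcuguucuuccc
miR-298-3p: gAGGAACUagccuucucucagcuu
miR-335-5p: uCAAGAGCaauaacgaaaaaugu
miR-335-3p: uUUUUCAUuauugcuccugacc

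The neighbours miR-296 and miR-298 did not share a seed with each other, and no arm of the 5 members shared its seed with another of the 1679 mature miRNAs of the RefSeq table. The longest run of bases shared by mature arms of 2 of the 3 miRNAs with counts was 5. G and C made up 66.7% of miR-296-5p, 68.2% of miR-296-3p, 65.2% of miR-298-5p and 50% of miR-298-3p, against a median of 52.2% over all mature miRNAs of the table. miR-335-5p was at the other end with 30.4%, and 98.4% of the mature miRNAs had at least that content. Which arm the counts stand for is not known, and the arms of miR-298 differ in base composition.

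At the Gnas locus, miR-298 and miR-296 were present in all 6 mutant libraries and had no count in any of the 3 WT libraries, and for both miRNAs the mean level was higher in Bbs4-/- than in Bbs6-/- smEVs. miR-298 was the more abundant of the pair in every mutant library.
The level of miR-298 was 1934, 1438 and 1560 CPM in Bbs4-/- libraries 1, 2 and 3 (306, 321 and 670 counts). In Bbs6-/- libraries 2, 3 and 4 it was 642, 615 and 670 CPM (117, 180 and 234 counts). The mutant lines did not overlap, since the lowest Bbs4-/- library lay above the highest Bbs6-/- library. Here and below, the share of all miRNAs that separate the lines in this way is not given. A lack of overlap therefore describes the libraries and does not show that the separation is unusual. As means, miR-298 had 1644 ± 259 CPM (SD, n = 3) in Bbs4-/- and 642 ± 27.3 CPM (SD, n = 3) in Bbs6-/-. It ranked 58 by mean CPM among all entries in Bbs4-/- and 78 in Bbs6-/-. The coefficient of variation was 15.7% in Bbs4-/- and 4.25% in Bbs6-/-, which was the smallest of the 3 miRNAs with counts in either line.

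miR-296 stood at 348, 533 and 664 CPM in Bbs4-/- libraries 1, 2 and 3 (55, 119 and 285 counts). It stood at 225, 321 and 392 CPM in Bbs6-/- libraries 2, 3 and 4 (41, 94 and 137 counts). Here the mutant lines overlapped, because Bbs4-/- library 1 lay below Bbs6-/- library 4. The means were 515 ± 159 CPM (SD, n = 3) in Bbs4-/- and 313 ± 83.9 CPM (SD, n = 3) in Bbs6-/-, at ranks 86 and 98.

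The absence from WT was set against the depth of those libraries. A count of 0 was taken to allow up to 3 counts, which is 36.5, 26.7 and 19.4 CPM in WT libraries 1, 3 and 4. At the mean Bbs6-/- level of miR-298, these libraries would have held 52.8, 72.1 and 99.4 counts, and at that of miR-296, 25.7, 35.1 and 48.4 counts. With the mean of the 3 limits in place of the WT level, miR-298 was at least 59.7-fold higher in Bbs4-/- and at least 23.3-fold higher in Bbs6-/- than in WT. For miR-296 these bounds were 18.7-fold and 11.4-fold. The limits cover counting error in WT only. The mutant means entered without their spread, so the bounds are for the ratio of line means and not for each library.
In the fits over all miRNAs, a miRNA was called when its adjusted p was under 0.1 and its log2 fold change at least 2 in either direction (edgeR's quasi-likelihood test). Of the 3 members tested, 2 were called in Bbs4-/- against WT, where 6.17% of all 308 miRNAs tested were called, and 2 in Bbs6-/- against WT, where 4.03% of 298 were called. In both comparisons these were miR-296 and miR-298. The comparisons share the WT libraries, and since the members were chosen with these differences known, the counts describe the members only.

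**Figure D1:**
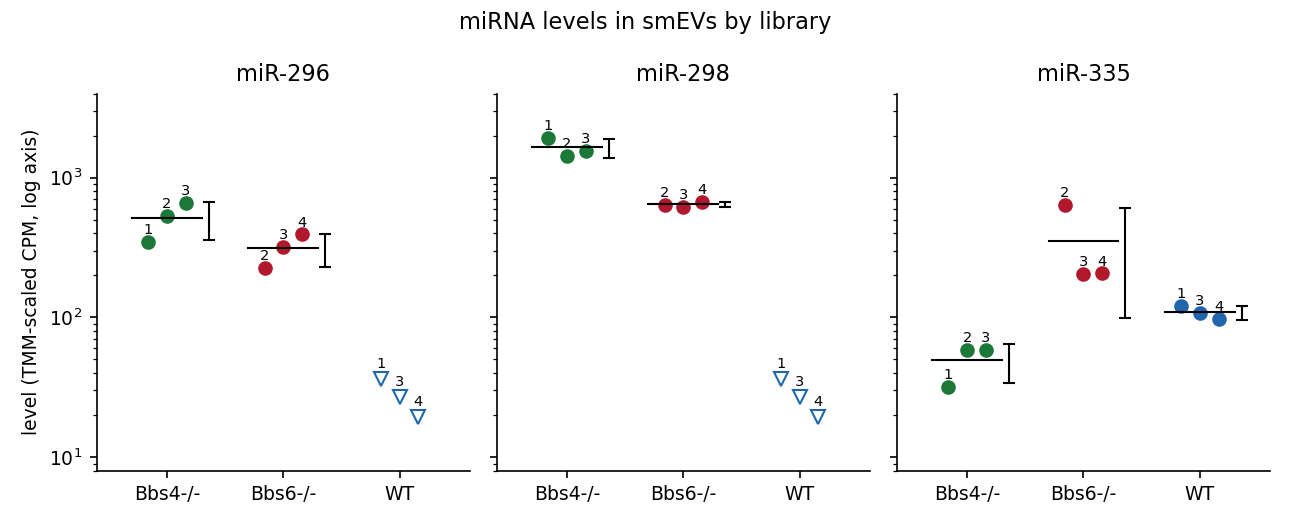
Levels of miR-296, miR-298 and miR-335 in each smEV library, as TMM-scaled CPM on a log axis. Filled points are libraries with counts, labelled by replicate number, lines and bars are the mean and SD of 3 libraries, and open triangles mark WT libraries without a count at the level that 3 counts would give (19.4 to 36.5 CPM). miR-296 and miR-298 are seen in the 6 mutant libraries only, while miR-335 is seen in all 9 and is lowest in Bbs4-/-.

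Taken as 1 locus, miR-296 and miR-298 together made up 0.204%, 0.206% and 0.209% of the miRNA counts of Bbs4-/- libraries 1, 2 and 3. The same sum was 0.0820%, 0.0852% and 0.0875% in Bbs6-/- libraries 2, 3 and 4. The 6 libraries thus fell into 2 narrow ranges that did not overlap, and the ratio of the line means was 2.43. The coefficient of variation of the sum was 1.18% in Bbs4-/-, against 33.2% for miR-296 and 9.07% for miR-298 alone. In Bbs6-/- it was 3.27% for the sum, 20.6% for miR-296 and 5.23% for miR-298. The spread of the sum was smaller than the counting error of a library, since the 95% Clopper-Pearson interval of Bbs4-/- library 1 ran from 0.184% to 0.226%, so libraries of a line could not be ranked at this depth. The closeness also depended on the scale. After TMM scaling the sum was 2159 ± 166 CPM (SD, n = 3) in Bbs4-/- and 955 ± 98.8 CPM (SD, n = 3) in Bbs6-/-, with coefficients of variation of 7.67% and 10.3% and a ratio of 2.26.

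**Figure D2:**
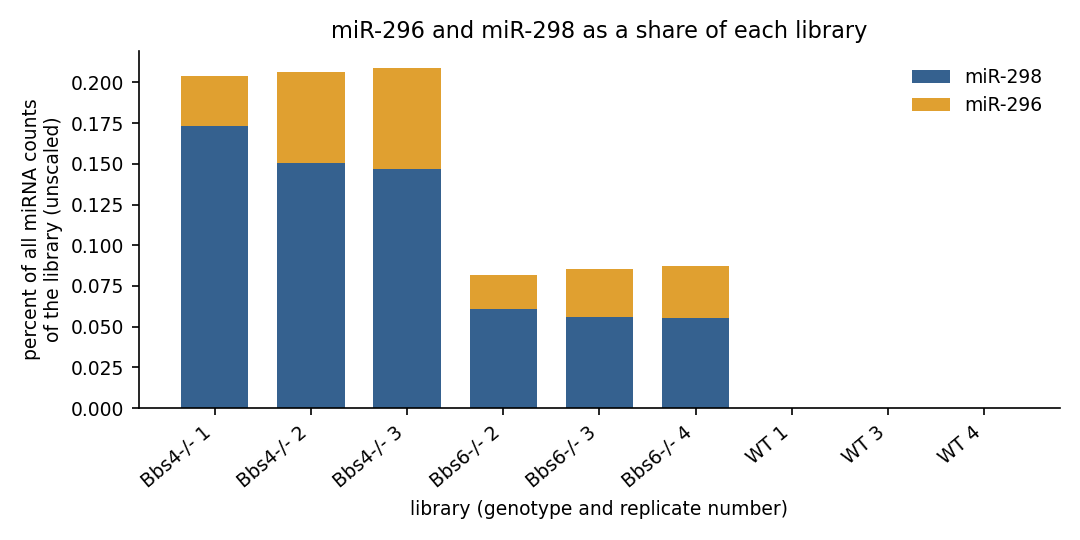
Share of all miRNA counts of each library taken by miR-298 and miR-296, unscaled, as stacked bars in percent. The sum lies between 0.204% and 0.209% in the Bbs4-/- libraries and between 0.0820% and 0.0875% in the Bbs6-/- libraries, and the WT libraries have no count of either.

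The balance within the pair does not depend on how libraries are scaled. miR-298 made up 84.8%, 73.0% and 70.2% of the summed counts of the pair in Bbs4-/- libraries 1, 2 and 3, and 74.1%, 65.7% and 63.1% in Bbs6-/- libraries 2, 3 and 4. Library 1 of Bbs4-/- stood apart, with an interval of 80.6% to 88.3% that lay above those of libraries 2 (68.6% to 77.1%) and 3 (67.1% to 73.1%). The mean share was 76.0% ± 7.75 (SD, n = 3) in Bbs4-/- and 67.6% ± 5.73 (SD, n = 3) in Bbs6-/-, a difference of 8.35 percentage points. The libraries of the 2 lines overlapped. Without Bbs4-/- library 1 the difference was 3.95 percentage points, and without Bbs6-/- library 2 it was 11.6. No test is given, since these counts were known when the pair was chosen and an exact permutation test of 3 against 3 libraries cannot give a p below 0.1.

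**Figure D3:**
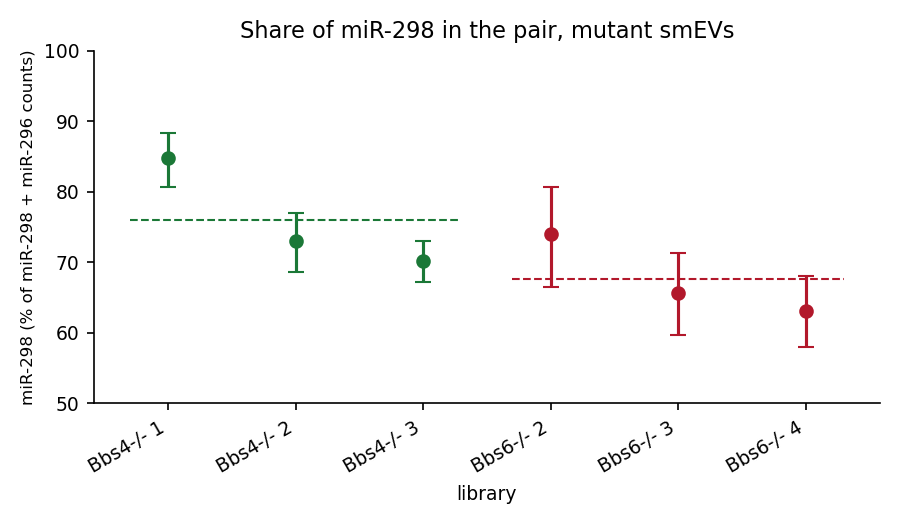
Share of miR-298 in the summed counts of miR-298 and miR-296 in each mutant library, in percent on an axis from 50 to 100. Bars are 95% Clopper-Pearson intervals and dashed lines are the means of the lines, 76.0% in Bbs4-/- and 67.6% in Bbs6-/-. The libraries of the 2 lines overlap.

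miR-335, from the Mest intron, followed another pattern. It was found in all 9 libraries, lowest in Bbs4-/-, intermediate in WT and highest in Bbs6-/- smEVs. In Bbs4-/- libraries 1, 2 and 3 its level was 31.6, 58.2 and 58.2 CPM (5, 13 and 25 counts). WT libraries 1, 3 and 4 held 122, 107 and 97.0 CPM (10, 12 and 15 counts). Bbs6-/- libraries 2, 3 and 4 held 642, 205 and 206 CPM (117, 60 and 72 counts). The ranges of the 3 lines did not overlap, but Bbs6-/- library 2 was far above the other Bbs6-/- libraries, so the mean of 351 ± 252 CPM (SD, n = 3) in that line had a wide error. The means were 49.4 ± 15.4 CPM in Bbs4-/- and 109 ± 12.4 CPM in WT (SD, n = 3 each). By mean CPM, miR-335 ranked 172 in Bbs4-/-, 133 in WT and 91 in Bbs6-/-.
The log2 fold change of miR-335 against WT was -1.20 (standard error 0.54) in Bbs4-/- and 1.67 (standard error 0.52) in Bbs6-/-, and it was called in neither comparison. Without Bbs6-/- library 2, the second value was 0.99, from a mean of 206 CPM in the remaining Bbs6-/- libraries. It was called against WT only when Bbs6-/- library 4 was left out, with a value of 2.04. Few counts stand behind the low values. The 95% Clopper-Pearson interval of the share of miR-335 ran from 0.000918% to 0.00660% of the counts in Bbs4-/- library 1 and from 0.00748% to 0.0287% in WT library 1, which was the only pair of libraries of these lines whose intervals did not overlap. The intervals of Bbs4-/- libraries 2 and 3 overlapped those of all 3 WT libraries.

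In the direct contrast of the mutant lines, fitted on all 9 libraries, 1 of the 3 members tested was called, beside 3.88% of all 309 miRNAs tested. This was miR-335, with a log2 fold change of -2.78 for Bbs4-/- over Bbs6-/- (standard error 0.53). It was -2.07 without Bbs6-/- library 2. As the counts of miR-335 in the 3 lines were known when the members were chosen, this call is a description too. The values of the Gnas-locus pair had the opposite sign, 1.35 (standard error 0.27) for miR-298 and 0.72 (standard error 0.39) for miR-296. Without Bbs6-/- library 2 they were 1.29 and 0.47. Neither reached the log2 fold change of 2 that a call needs. The loci therefore differed in the order of the lines: the miRNAs of the Gnas locus ran from Bbs4-/- over Bbs6-/- to WT, and the miRNA of Mest from Bbs6-/- over WT to Bbs4-/-. For miR-296 the step from Bbs4-/- to Bbs6-/- lay within the overlap of the libraries.

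**Figure D4:**
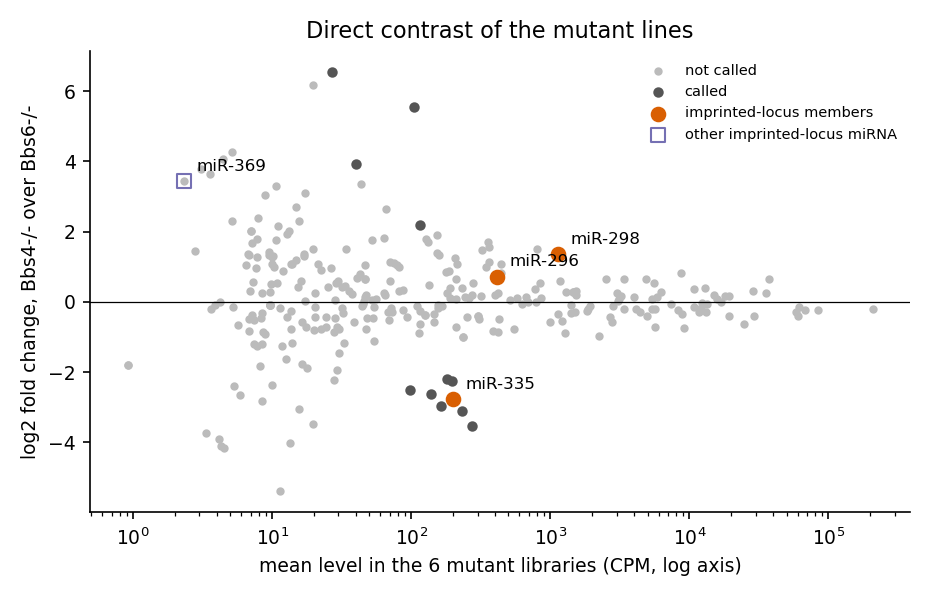
Log2 fold change of Bbs4-/- over Bbs6-/- smEVs for 309 miRNAs, plotted over the mean level in the 6 mutant libraries (CPM, log axis). Dark points are the 12 miRNAs called, orange points the members with counts and the square a further imprinted-locus miRNA. miR-335 lies at -2.78, miR-298 at 1.35 and miR-296 at 0.72.

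The H19 and Igf2 miRNAs were not detected. miR-675, which lies in an exon of H19, and miR-483, which lies in an intron of Igf2, had 0 counts in each of the 9 libraries. A count of 0 allows up to 3.70 CPM over the 3 Bbs4-/- libraries together, 3.64 CPM over those of Bbs6-/- and 8.59 CPM over those of WT. The bounds for the H19 and Igf2 miRNAs lie below the mean level of miR-335 in Bbs4-/-, the lowest mean seen for a detected member. No difference between the lines could be looked for at these genes.

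Further miRNAs of imprinted regions were listed by locus. The largest such group lies on chromosome 12 between Dlk1 and Dio3 (109452823-110281097), where maternally expressed non-coding transcripts carry a long series of miRNAs, and miR-184 lies near Rasgrf1. Of 59 entries with a listed name, 58 were kept, 57 of the Dlk1-Dio3 region and miR-184, while miR-496b was left out because its annotated gene lies elsewhere. Counts were found for 7 of the 57 Dlk1-Dio3 entries, 28 counts in all over the 9 libraries, against 2559 counts of miR-296 and miR-298 and 2086664 counts of all miRNAs. The summed level of the region was 0 to 22.4 CPM in Bbs4-/- libraries, 0 to 20.5 CPM in Bbs6-/- and 0 to 72.9 CPM in WT, so the lines overlapped and 3 libraries had no count.
By mean CPM the most abundant of the 58 were miR-369 (6.59 CPM), miR-184 (4.97 CPM) and miR-493 (2.95 CPM). miR-369 had 6 counts in Bbs4-/- library 3, 3 in WT library 1, 1 in WT library 3 and none in the other libraries. miR-184 had 1 and 2 counts in Bbs4-/- libraries 2 and 3 and 4 counts in WT library 3. miR-493 had 4 counts in Bbs4-/- library 2 and 3 in Bbs6-/- library 4, too few to be tested. These are scattered low counts, and in each line the highest summed level of the region lay below the lowest level of miR-335.
Against WT, 2 of the 58 were tested in Bbs4-/- and 0 in Bbs6-/-, and 1 was tested in the direct contrast. None was called in either direction by edgeR's quasi-likelihood test or by DESeq2, and 0 had an unadjusted p under 0.05 (edgeR), a limit that 80 of all 308 miRNAs passed in Bbs4-/- against WT and 50 of 309 in the direct contrast. With so few entries tested, the count says little about the list. The log2 fold change in Bbs4-/- against WT was -1.72 for miR-184 (standard error 1.83, adjusted p = 0.588, edgeR) and -1.27 for miR-369 (standard error 1.78, adjusted p = 0.707, edgeR). In the direct contrast miR-369 had 3.44 (standard error 2.11, adjusted p = 0.460, edgeR). The median log2 fold change over all miRNAs tested was -0.02 in Bbs4-/- against WT and 0.04 in the direct contrast.

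The other miRNA genes within 1 Mb of the members were looked at next. Around Mir335 these were miR-182, miR-183 and miR-96, which form a cluster, and miR-29a, miR-29b and miR-29b-1, all on the opposite strand. None of the 6 entries was called in any of the 3 contrasts. Their log2 fold changes lay between -0.35 (miR-182) and 1.52 (miR-29b-1) in Bbs4-/- against WT, between -0.11 (miR-183) and 1.19 (miR-29b) in Bbs6-/- against WT and between -0.87 (miR-29b) and 1.00 (miR-29b-1) in the direct contrast. The nearest, miR-29a at a distance of 321264 bp, had 6789 ± 1285 CPM in Bbs4-/-, 11439 ± 2760 CPM in Bbs6-/- and 5907 ± 1175 CPM in WT (SD, n = 3 each). Its log2 fold change was 1.00 in Bbs6-/- against WT (standard error 0.25, adjusted p = 0.0417, edgeR), below the limit on the fold change, and -0.75 in the direct contrast (standard error 0.24, adjusted p = 0.0998, edgeR). miR-182 was at 58503 ± 10159 CPM in Bbs4-/-, 64724 ± 9681 CPM in Bbs6-/- and 69042 ± 8792 CPM in WT, which overlapped. The entry of miR-29b can stand for either of 2 genes. Beside Mir296 and Mir298 only miR-6340 was annotated within this distance, and it had no count. Around Mir675 and Mir483 the entries were miR-3104 and miR-7064, without a count, and miR-7063, with 2 counts in all, so the neighbourhoods on chromosomes 2 and 7 gave nothing to compare.

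Profiles over the 9 libraries were compared by the root mean square difference of log2 CPM (prior count 2) after each miRNA's own mean had been subtracted. Among 308 miRNAs, the nearest to miR-298 was miR-296 and the reverse also held, with a difference of 0.78 on the log2 scale, against a median of 3.30 from miR-298 and 2.64 from miR-296 to all miRNAs. The next were miR-200c (1.23 from miR-298 and 1.25 from miR-296) and miR-135b (1.84 and 1.17), which were low in WT as well. Neither member of the pair had a count in WT, so both took the same value in every WT library. The pair was chosen with these counts known, so the nearness is a description and not independent support for a joint change. miR-200c belongs to the miR-200 family, a marker of epithelial cells. miR-135b had 901 ± 179 CPM in Bbs4-/-, 1657 ± 822 CPM in Bbs6-/- and 95.4 ± 66.2 CPM in WT (SD, n = 3 each), so unlike the Gnas-locus pair it was seen in WT and had its higher mean in Bbs6-/-. miR-335 was far from the pair, at 3.53 from miR-298 and 2.87 from miR-296.
The nearest profiles to miR-335 were those of miR-181c (0.64), miR-152 (0.72) and miR-1249 (0.76), against a median of 1.35. miR-181c had 34.8 ± 21.6 CPM in Bbs4-/-, 295 ± 121 CPM in Bbs6-/- and 133 ± 86.7 CPM in WT (SD, n = 3 each). miR-152 and miR-1249 had 46 and 57 counts in all. This set was less stable, because only 1 of the 3 was still among the nearest when Bbs4-/- library 1 or 2 or Bbs6-/- library 2 was left out.

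**Figure D5:**
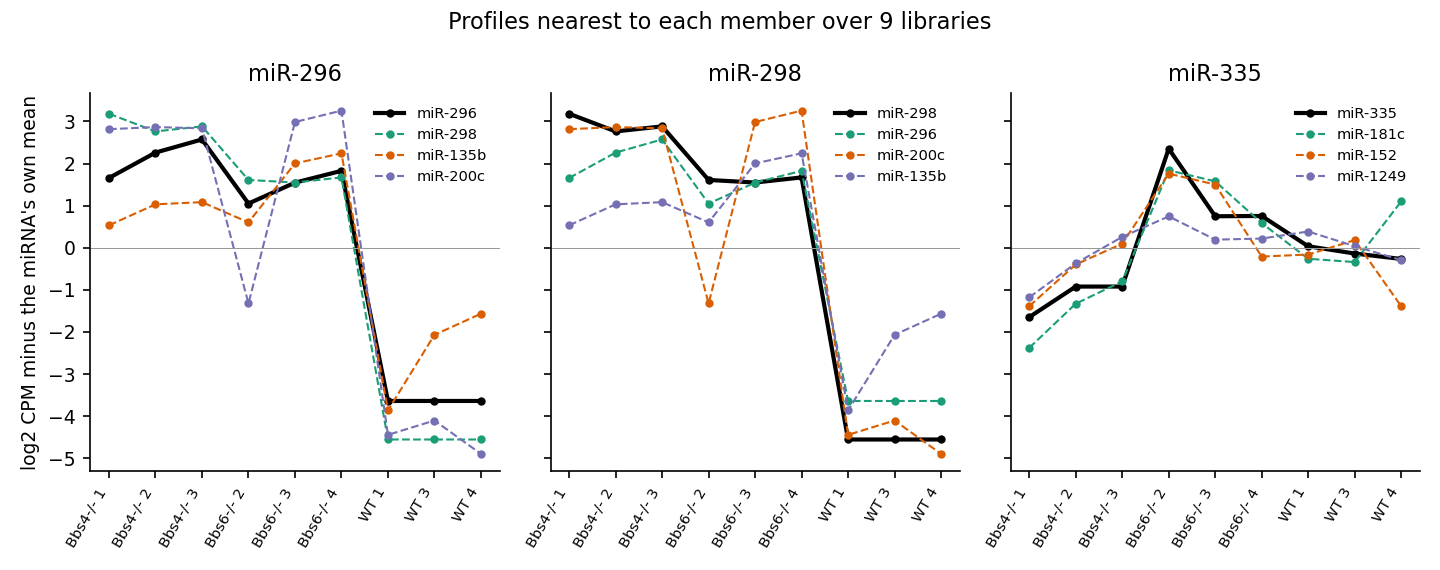
Profiles of miR-296, miR-298 and miR-335 (black) and the 3 miRNAs nearest to each (dashed) over the 9 libraries, as log2 CPM minus the miRNA's own mean. The pair from the Gnas locus falls from the mutants to WT, with a root mean square difference of 0.78 between the 2 profiles, while miR-335 is lowest in Bbs4-/- and highest in Bbs6-/- library 2. Without a count in WT, miR-296 and miR-298 take the same log2 CPM there before the mean is subtracted.

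Markers of cell types moved with the members in part. Of 5 epithelial miRNAs, all 5 had counts in every mutant library, and 4 did so in WT, where miR-141 was at 0. Their summed level was 16968 to 18926 CPM in Bbs4-/-, 16551 to 21410 CPM in Bbs6-/- and 9993 to 13305 CPM in WT. miR-200c had 1 or 2 counts in each WT library, while miR-200b, at 8389 CPM on average, was abundant there. Bbs6-/- library 2, the highest for miR-335, had 32 counts of miR-200c, against 1069 to 1542 in the other Bbs6-/- libraries. In this library miR-298 was at 642 CPM, against 615 and 670 CPM in libraries 3 and 4. Its level of miR-296 was the lowest of the line, 225 CPM against 321 and 392 CPM. The share of miR-298 in the pair was the highest of the line, 74.1% against 65.7% and 63.1%. Of the 9 entries of kidney epithelial markers, miR-194-1 was at 0 throughout and miR-194-2 in WT. Counts in all 3 libraries of a line were found for 7 entries in Bbs4-/-, 5 in Bbs6-/- and 5 in WT. The summed levels were 103397 to 121904, 98092 to 114463 and 53831 to 97611 CPM in Bbs4-/-, Bbs6-/- and WT. Over the mutant libraries the sum was mostly miR-10a (68088 CPM) and miR-30a (37596 CPM), with miR-10b at 4896 CPM. miR-192, miR-194, miR-204 and miR-215 were at 11.3 to 147 CPM there, so the sum says little about them. Of the 5 entries of mesenchymal markers, miR-145a, miR-145b and miR-214 were at 0 in all lines, and the sum was 123 to 273 CPM in Bbs4-/-, 20.0 to 71.8 CPM in Bbs6-/- and 80.2 to 162 CPM in WT. The mutant lines did not overlap, and miR-143 was called in the direct contrast, with a log2 fold change of 2.19. Blood markers (5 entries) summed to at most 64.6 CPM with miR-142b and miR-451b at 0 throughout, and the liver miRNA miR-122 was at 0 to 8.96 CPM in Bbs4-/-, 0 to 75.2 CPM in Bbs6-/- and 26.7 to 85.1 CPM in WT. Between the mutant lines, the mesenchymal sum and miR-335 ran in opposite directions, while miR-122 overlapped and was not called. Against WT, miR-122 and miR-335 were both lower in Bbs4-/-. The part of these markers in the differences of miR-296, miR-298 and miR-335 was not tested. Fewer vesicles of a kind and less of a miRNA per vesicle cannot be told apart in these pellets.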

How the data were processed

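The authors deposited miRNA counts, which were not normalized. Per the paper's methods, adapters were trimmed (cutadapt 1.9), reads with low-quality calls removed, reads with equal sequence and molecular identifier collapsed, identifiers trimmed, reads under 15 nucleotides removed and miRNAs counted with miRDeep2 (mapper 2.0.0.8), keeping the maximal count where a miRNA had several entries. A count therefore does not sum over the genes or arms of a miRNA. The submitters' processing notes name GRCm38; the miRBase release is not given in the sources used here.

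Libraries were grouped by genotype. Counts were tested in R 4.3.3 with edgeR 4.0.16 (TMM, quasi-likelihood test, Benjamini-Hochberg adjustment) on the 6 libraries of each mutant and WT (total of at least 6 counts) and on all 9 for the mutants (at least 9). Standard errors are the log2 fold change divided by the square root of F. DESeq2 1.42.0 was an alternative. The test was tried on simulated data beforehand. Members and lists were chosen with earlier results of these data known. Named are the members, the called and the 3 most abundant of the other imprinted-locus miRNAs, the 3 nearest profiles of each member and tested neighbours within 1 Mb. The paper describes the pellets of a line as independent preparations, while the labels name no separate cultures. With 1 line a genotype, p-values measure the spread between pellets of a line. Intervals are Clopper-Pearson (scipy 1.17.1). Figures were drawn with matplotlib 3.10.9.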

Additional observations from a re-analysis of the deposited data

Results flagged for a closer look

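miR-335 was set apart because its difference from WT had opposite signs in the mutant lines, lower in Bbs4-/- and higher in Bbs6-/-. Neither difference from WT was called in the reported setting. The first rests on 43 counts in Bbs4-/- and 37 in WT, and the second fell to a log2 fold change of 0.99 without Bbs6-/- library 2. The direct contrast between the mutant lines was called, with a log2 fold change of -2.78 for Bbs4-/- over Bbs6-/-. The level of miR-335 in Bbs6-/- library 2 was 642 CPM, against 205 and 206 CPM in the other libraries of that line.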

How the results depend on the processing

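No paired analysis was possible because the count columns of Bbs6-/- and WT carry numbers that differ from those of the labels, so that, unlike the Bbs4-/- columns, they could not be matched to a labelled replicate. Of the recomputed main values, 214 kept their direction and moved by less than the spread between replicates (counts by at most 1.5 times), while 9 moved further and none reversed. The 214 include the numbers of other imprinted-locus miRNAs called, which were 0 in every setting. With so few of these entries tested, such numbers had little room to change and have no direction. miR-335 in Bbs6-/- against WT changed its side of the thresholds without Bbs6-/- library 4 (2.04, called). With the reported setting included, miR-296 and miR-298 were called against WT in 14 of 14 settings in each mutant line and in 0 of 17 in the direct contrast, where miR-335 was called in 17. The settings share the libraries by which the members were known, so this describes the processing only.

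With total counts in place of TMM, the lower bounds on the log2 fold change against WT fell to 5.59 for miR-298 in Bbs4-/- and to 3.08 for miR-296 and 4.13 for miR-298 in Bbs6-/-. Leaving out 1 library at a time gave bounds of 5.57 to 6.04 for miR-298 in Bbs4-/- and 4.35 to 4.81 in Bbs6-/-. It gave log2 fold changes of 0.99 to 2.04 for miR-335 in Bbs6-/- against WT and of -3.21 to -2.07 in the direct contrast, the values nearest to 0 coming without Bbs6-/- library 2. The number of miRNAs called in the direct contrast was 12, and 7 to 18 with 1 library left out, the lowest without Bbs4-/- library 1. The cause was not tested. The WT depth limits the bounds for miR-296 and miR-298, and the counts of miR-335 in Bbs4-/- and WT limit its precision.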

Other observations

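Of all 1164 entries, 6 had no count in WT and at least 10 counts in each mutant line, namely miR-141, miR-296, miR-298, miR-33, miR-34b and miR-34c. With a minimum of 100 counts in each mutant line, miR-296 and miR-298 alone met this rule. It asks for no count at all in WT, which miR-200c missed with 1 or 2 counts in each WT library. That is within the 3 counts that a count of 0 was taken to allow. The mean level of miR-200c was 3307 CPM in Bbs4-/-, 2748 CPM in Bbs6-/- and 12.1 CPM in WT, so near-absence from WT was not particular to the pair. Both limits were chosen after the counts had been seen, and no test was made.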
